A study of Mus musculus with 12 samples.

Results

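This account covers 10 genes through which cells sense lipopolysaccharide (LPS, the outer membrane lipid of Gram-negative bacteria) and other ligands of Toll-like receptors in mouse liver. They are Lbp, Cd14, Ly96, Tlr4, Tlr2, Tlr3, Tlr5, Myd88, Tirap and Irak3. They were taken by symbol, and each matched 1 of the 53796 genes listed. Total RNA from liver was sequenced in 12 libraries, 3 in each of 4 groups. The Sham group is wild-type liver labelled sham, and WT is wild-type liver without that label. RIPK1_D138N carries a mutation in the kinase domain of RIPK1 that is known to abolish its kinase activity, and TNFR12_KO is labelled a knockout of the TNF receptors TNFR1 and TNFR2. The series title speaks of ischemia, an interruption of blood supply, and only Sham carries a sham label, so the other 3 groups were read as its ischemic arm. Age, strain background, the time of collection and whether each of the 3 repeats is its own animal are not given in the sources used here. P-values therefore measure the spread between these libraries, which may be technical, although RIPK1_D138N holds libraries of both sexes by the genes given below. No sham libraries of either mutant were analysed here, so a difference present before ischemia and a different response to it cannot be told apart.

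LPS reaches its receptor in steps. LBP, a plasma protein made mainly by hepatocytes, extracts LPS and hands it to CD14, which passes it on to the complex of MD-2 (encoded by Ly96) and TLR4. TLR2 recognises bacterial lipopeptides, TLR5 flagellin and TLR3 double-stranded RNA. The adaptors TIRAP and MyD88 link TLR2 and TLR4 to the IRAK kinases and NF-κB, TLR5 uses MyD88, TLR3 signals through TRIF, and IRAK3 (IRAK-M) restrains the MyD88 arm. In liver the receptors are known from Kupffer cells (resident macrophages) and endothelium as well as from hepatocytes.

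Promoter sequence is shown for 3 of these genes, since the results turn on genes that were high in different groups. The windows are the 250 bases before a RefSeq transcription start on GRCm38.p6, all on the minus strand and written 5′ to 3′, with motif matches in capitals. Tlr2, which was highest in TNFR12_KO, is shown at chr3:83841609-83841858. Myd88, which was highest in Sham, is shown at chr9:119340019-119340268. Irak3, which was highest in WT, is shown at chr10:120202131-120202380, the upstream of its 2 listed starts.
Tlr2: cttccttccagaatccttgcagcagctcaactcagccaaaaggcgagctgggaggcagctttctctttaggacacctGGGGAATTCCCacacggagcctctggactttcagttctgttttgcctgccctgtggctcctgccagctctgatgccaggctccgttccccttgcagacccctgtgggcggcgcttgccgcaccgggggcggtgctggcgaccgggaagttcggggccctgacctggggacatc
Myd88: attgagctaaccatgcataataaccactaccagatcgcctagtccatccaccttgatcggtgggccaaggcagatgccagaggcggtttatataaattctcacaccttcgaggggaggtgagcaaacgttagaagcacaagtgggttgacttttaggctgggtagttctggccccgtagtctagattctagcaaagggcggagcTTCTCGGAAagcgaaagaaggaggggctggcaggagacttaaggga
Irak3: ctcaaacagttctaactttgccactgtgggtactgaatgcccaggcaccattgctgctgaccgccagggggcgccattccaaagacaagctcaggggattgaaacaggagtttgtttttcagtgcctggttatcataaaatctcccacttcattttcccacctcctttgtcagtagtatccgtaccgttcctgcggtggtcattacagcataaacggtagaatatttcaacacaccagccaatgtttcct

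The capitals in Tlr2 are 2 overlapping matches to the NF-κB motif, which begin 173 and 172 bases before the start. Those in Myd88 are a STAT motif, TTCNNNGAA, which begins 46 bases before the start. The motifs searched, on both strands, were NF-κB, AP-1 (TGANTCA), STAT (TTCNNNGAA), C/EBP (TTGCNNAA) and the hypoxia response core ACGTG. Among 32851 promoter windows of this length, 3.9% held the NF-κB motif, 6.75% the AP-1 motif, 7.02% the STAT motif, 9.56% the C/EBP motif and 16.6% the hypoxia core. Entries were held for 6 of the 10 genes. Tlr3 also had an NF-κB match, 211 bases before its start, and a C/EBP match 95 bases before it. Tlr5, Tirap and Irak3 had none of these letters in their windows. Cd14, Tlr4, Ly96 and Lbp had no entry. The windows of Myd88, Tlr3 and Tirap lie inside the annotated bounds given below for each gene, and that of Tlr2 lies partly inside. These RefSeq starts are thus not the outermost annotated ones. A match describes letters and is not evidence of binding.

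Values are deposited FPKM, fragments normalised to the length of the transcript and the depth of the library. All genes together gave 288934 to 303514 FPKM per library in WT, 441296 to 518580 in the mutants and 649373 to 750501 in Sham, and the steps between low values put 11.1 to 58.9 fragments behind 1 FPKM per kilobase of transcript. Tnfrsf1a, which encodes TNFR1, stood at 35.1 ± 2.90 FPKM in WT and 18.5 ± 3.28 in the libraries labelled TNFR1/2 knockout, and Tnfrsf1b, which encodes TNFR2, at 9.51 ± 1.20 and 6.83 ± 2.70 (mean ± SD, n = 3). Transcripts of both were thus still listed there, and a value per gene cannot show a deletion of part of it. RIPK1_D138N also lay below WT in the mean, at 19.8 ± 1.09 for Tnfrsf1a and 5.52 ± 0.499 for Tnfrsf1b, so these lower levels do not mark the knockout. In Sham the 2 genes stood at 69.5 ± 16.5 and 6.92 ± 2.69. Ripk1 stood at 3.88 ± 0.858 in WT and 3.48 ± 0.434 in RIPK1_D138N, which does not check a point mutation. Xist, which silences an X chromosome in females, read 20.1 and 23.4 FPKM in RIPK1_D138N libraries 2 and 3 and at most 0.0824 in each of the other 10. Alb, a defining hepatocyte marker, is listed at 0 in all 12 libraries, so a 0 in this table can be a failed estimate. None of the 10 genes has a value of 0. In bulk liver, fewer cells of a type and less RNA per cell cannot be told apart.

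The 10 genes fell into separate patterns. Cd14, Ly96 and Irak3 were high in WT alone and fell in both mutants against WT. Lbp and Myd88 were high in Sham alone and low in WT and both mutants. Tlr2 was highest in TNFR12_KO, Tlr5 was higher in Sham and TNFR12_KO than in WT, Tirap was lower in the mutants than in Sham, and Tlr3 and Tlr4 stayed near or under 1 FPKM everywhere.

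**Figure D1:**
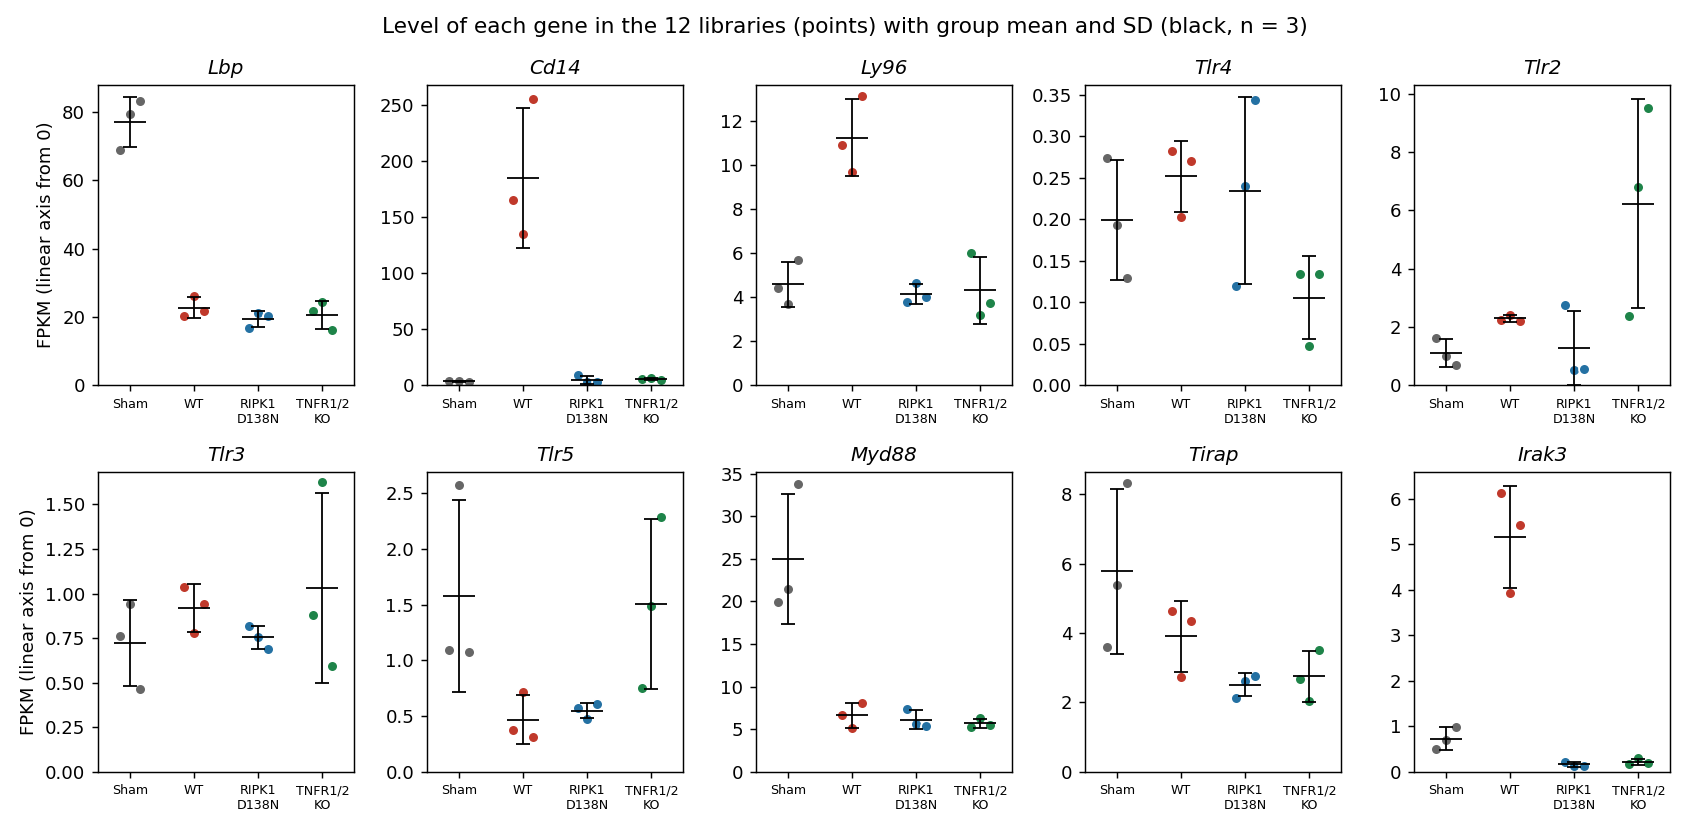
FPKM of each gene (linear axis from 0) by group, with each library as a point and the group mean and SD in black (n = 3). Cd14, Ly96 and Irak3 stand apart in WT, Lbp and Myd88 in Sham, and the TNFR12_KO points of Tlr2 spread from 2.39 to 9.50 FPKM.

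Differences were tested with limma on log2(FPKM + 1) over 11728 genes, those that reached 1 FPKM in 3 or more libraries, and a gene was called at a Benjamini-Hochberg adjusted p under 0.05. Fold changes are given ± their standard error, and on this scale they understate the change of low genes. Of the 10 genes 8 passed the filter. Tlr3 and Tlr4 did not, Irak3 passed only through its WT libraries, and Tlr5 would not have passed without its Sham libraries. Counts below that hold a call of Irak3 against or in WT, or of Tlr5 against Sham, are therefore descriptions. In WT against Sham 3 of the 8 rose (Cd14, Ly96, Irak3) and 3 fell (Lbp, Myd88, Tlr5), a called share to be read beside the 58.2% of all tested genes called in that comparison, 16.4% higher and 41.9% lower. The median log2 fold change was 0.12 over the 8 genes and -0.36 over all genes. With median-of-ratios scaling the median of all genes was -0.03, the calls split into 3169 higher and 3185 lower in place of 1918 and 4913, and Tlr5 was no longer called. The scaling moved the split of calls in other comparisons too, to 2903 higher and 2970 lower in TNFR12_KO against WT (from 3466 and 2054), 3122 and 3199 in RIPK1_D138N against WT (from 3500 and 2570), 44 and 40 in RIPK1_D138N against TNFR12_KO (from 41 and 68), 1404 and 1235 in RIPK1_D138N against Sham (from 881 and 2658) and 1271 and 1095 in TNFR12_KO against Sham (from 875 and 2127).

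In RIPK1_D138N against WT none of the 8 rose and 3 fell (Cd14, Ly96, Irak3), where 51.8% of all genes were called, 29.8% higher and 21.9% lower. In TNFR12_KO against WT 1 rose (Tlr5) and the same 3 fell, where 47.1% of all genes were called, 29.6% higher and 17.5% lower. These comparisons share the WT libraries, through which alone Irak3 was tested. Against Sham, RIPK1_D138N had 4 falls and no rise (30.2% of all genes called, 7.51% higher and 22.7% lower), and TNFR12_KO had 4 falls and 1 rise (25.6% called, 18.1% lower and 7.46% higher). The falls were Lbp, Myd88, Irak3 and Tirap in each case, with the Sham libraries shared, and the rise was Tlr2. Directly between the mutants none of the 8 was called, 2 (Tlr2 and Tlr5) had an unadjusted limma p under 0.05, and 0.929% of all genes were called, 0.350% higher and 0.580% lower in RIPK1_D138N.

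**Figure D2:**
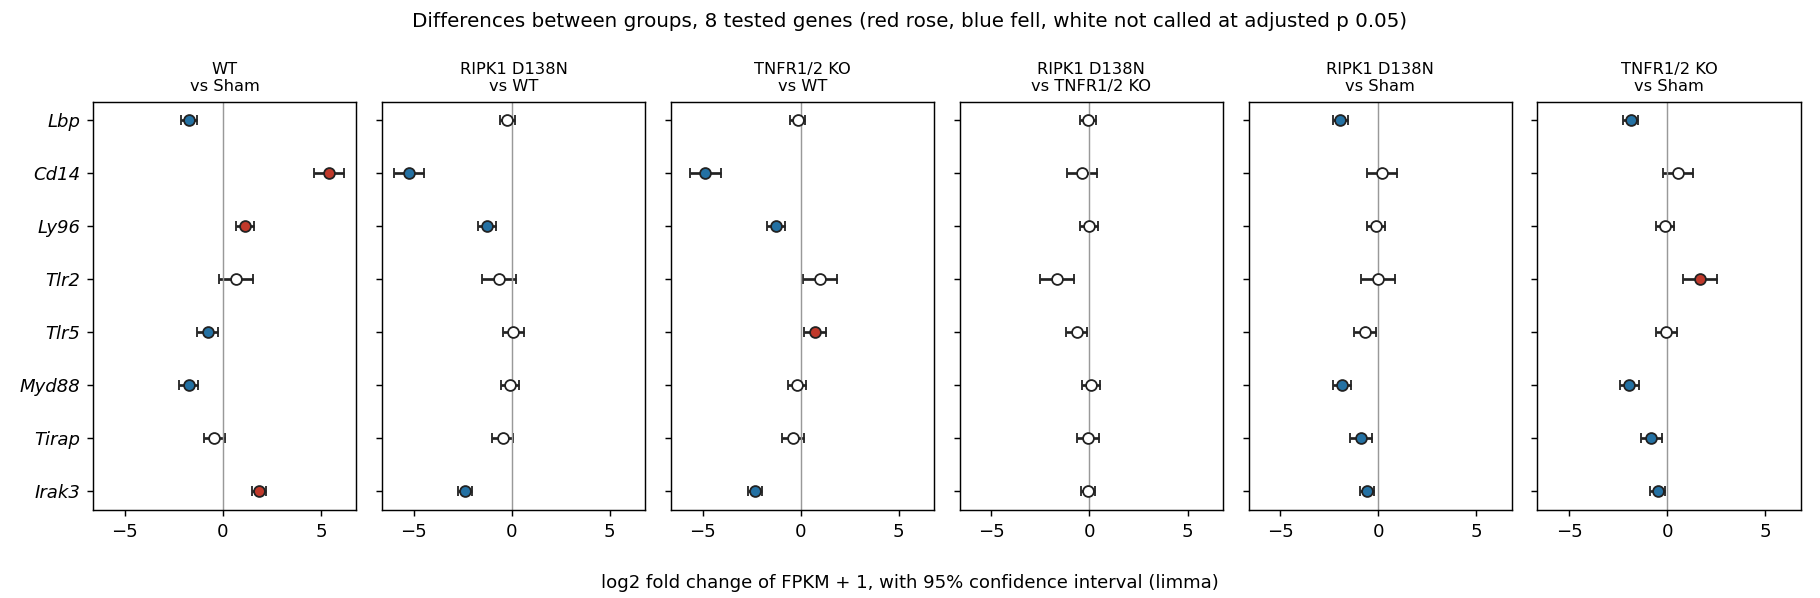
Log2 fold change of FPKM + 1 with its 95% confidence interval (limma) for the 8 tested genes, 1 panel per comparison, with red for a gene that rose, blue for one that fell and white for one not called. Cd14 has the longest distance from 0, at 5.41 in WT against Sham, and no gene is called in the panel that compares the mutants.

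Lbp (ENSMUSG00000016024, chromosome 2, 158306493 to 158332852, plus strand, GENCODE M21 on GRCm38) encodes the plasma protein that carries LPS to CD14. The Sham libraries read 68.9, 79.5 and 83.1 FPKM, the WT libraries 20.2, 26.1 and 21.8, those of RIPK1_D138N 16.6, 21.1 and 20.2, and those of TNFR12_KO 21.6, 24.2 and 16.1. Every Sham library lay above every other library, and the 3 remaining groups overlapped. Lbp fell in WT against Sham (log2 fold change -1.72 ± 0.18, limma adjusted p = 5.67e-06), in RIPK1_D138N against Sham (-1.95 ± 0.18, adjusted p = 2.41e-05) and in TNFR12_KO against Sham (-1.87 ± 0.18, adjusted p = 2.59e-05). Its mean in Sham, 77.2 FPKM, was 3.40 times that in WT. The size of the fall in WT depended on scaling. It was -1.28 with median-of-ratios scaling and -0.85 after quantile normalization, and was called in both. Between each mutant and WT Lbp was not called, with 95% intervals of -0.61 to 0.17 for RIPK1_D138N and -0.53 to 0.25 for TNFR12_KO. After quantile normalization both mutants passed as lower than WT (-0.71, limma adjusted p = 0.00425, and -0.68, adjusted p = 0.00611). Hepatocyte markers moved in part the same way, since 10 of 10 tested fell in WT against Sham, but 8 of 10 were higher in each mutant than in WT. Their part in the Lbp result was not tested.

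Cd14 (ENSMUSG00000051439, chromosome 18, 36725067 to 36726798, minus strand) encodes the co-receptor that takes LPS from LBP. Its level was 3.65, 3.69 and 2.46 FPKM in Sham and 166, 135 and 256 in WT. In RIPK1_D138N it was 8.53, 2.32 and 2.47, and in TNFR12_KO 5.23, 6.36 and 4.25. The lowest WT library was thus far above the highest of the other 9, library 1 of RIPK1_D138N stood above all Sham and TNFR12_KO libraries, and the TNFR12_KO libraries all lay above the Sham ones. By level, Cd14 ranked 6944 to 8271 among all genes of a Sham library and 164 to 338 in WT.

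The rise of Cd14 in WT against Sham was 56.7-fold in mean FPKM (log2 fold change 5.41 ± 0.36, limma adjusted p = 2.05e-07). Its mean was 41.7 times higher in WT than in RIPK1_D138N (-5.23 ± 0.36, adjusted p = 6.49e-07) and 35.1 times higher than in TNFR12_KO (-4.85 ± 0.36, adjusted p = 9.89e-07). Against Sham, Cd14 was not called in RIPK1_D138N (0.18, 95% interval -0.60 to 0.96, limma adjusted p = 0.734) or in TNFR12_KO (0.56, interval -0.22 to 1.33, adjusted p = 0.268). The RIPK1_D138N library with the highest Cd14 was the one without Xist, and the log2 fold change of this 1 library against WT was -4.24.

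None of the tested markers of Kupffer cells, monocytes or neutrophils, cells known to carry CD14, rose in WT against Sham. The 12 Kupffer cell markers summed to 93.1 to 140 FPKM per library of Sham but 38.3 to 49.9 for WT, with RIPK1_D138N at 24.9 to 32.7 and TNFR12_KO at 13.5 to 21.1, and 8 of the 10 tested fell in WT against Sham. Of those 10, Folr2 and Cd163 passed the filter only through the Sham libraries, where they are high, so that count is a description. None of the 12 was at 0 throughout a group. The 8 monocyte markers gave a sum of 241 to 417 FPKM for Sham and 141 to 187 for WT, with 0 of 4 tested higher. Most of these monocyte sums is Fn1, with a mean of 310.3 FPKM for Sham and 137.7 for WT, so they mainly follow that gene. In the mean Lyz2, Ly6c2 and Ccr2 were also lower in WT than in Sham, but Chil3, Plac8, F13a1 and Cx3cr1 were higher. The 10 neutrophil markers summed to 107, 5.02 and 265 FPKM in the WT libraries in the order in which Cd14 was given above. In Sham those markers summed to 38.8 to 83.3 FPKM, and 0 of 5 tested were called. Markers of other liver cells did rise in WT against Sham. Of the 6 cholangiocyte (bile duct cell) markers 4 were tested and 3 rose, Krt19, Sox9 and Spp1. The 6 summed to 163, 66.0 and 201 FPKM in the WT libraries and 23.5 to 28.7 for Sham, 50.7 to 66.2 for RIPK1_D138N and 35.1 to 59.2 for TNFR12_KO. Spp1 makes up most of these sums, with a mean of 113 FPKM for WT and 21.8 for Sham. Epcam, the other one tested, was not called and averaged 0.228 for WT and 0.433 for Sham. Of 9 stellate cell markers 4 rose and none fell (Dcn, Col1a1, Col3a1 and Pdgfrb, the last tested only through its WT libraries), with sums of 184 to 243 FPKM for WT, 143 to 179 for Sham, 286 to 390 for RIPK1_D138N and 92.2 to 169 for TNFR12_KO. Of 10 sinusoidal endothelial markers 2 rose (Pecam1, Cdh5) and 2 fell (Clec4g, Kdr). The part of any of these cells in the Cd14, Ly96 and Irak3 results was not tested.

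Ly96 (ENSMUSG00000025779, chromosome 1, 16688051 to 16709611, plus strand) encodes MD-2, the subunit of the TLR4 complex that binds LPS. Sham libraries held it at 4.40, 3.67 and 5.69 FPKM, WT at 10.9, 9.69 and 13.1, RIPK1_D138N at 3.77, 4.65 and 4.02, and TNFR12_KO at 6.01, 3.18 and 3.72. All WT libraries exceeded all others, and the other 3 groups overlapped. The mean in WT was 2.45 times that in Sham (log2 fold change 1.14 ± 0.21, limma adjusted p = 0.000511). Ly96 fell against WT in RIPK1_D138N (-1.24 ± 0.21, adjusted p = 0.00032) and in TNFR12_KO (-1.23 ± 0.21, adjusted p = 0.000395). The 95% interval between the mutants was -0.47 to 0.45, and neither mutant was called against Sham.

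Tlr4 (ENSMUSG00000039005, chromosome 4, 66827584 to 66930284, plus strand), the LPS receptor itself, was the lowest of the 10 genes in every group but the RIPK1_D138N group, where Irak3 was lower. Sham libraries held 0.274, 0.193 and 0.129 FPKM, WT ones 0.282, 0.202 and 0.270, RIPK1_D138N ones 0.119, 0.240 and 0.344, and TNFR12_KO ones 0.134, 0.0473 and 0.134. TNFR12_KO lay below WT, and the other groups overlapped. The steps between low values put 5.85 to 48.6 fragments behind these values, so small differences were not detectable at this depth. With no filter on low values Tlr4 was called in none of the 6 comparisons, and its lowest limma adjusted p was 0.106, in TNFR12_KO against WT (-0.18 ± 0.07), where the libraries did not overlap.

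Tlr2 (ENSMUSG00000027995, chromosome 3, 83836272 to 83841767, minus strand), the lipopeptide receptor, varied most within the mutants. Its level was 1.60, 1.01 and 0.682 FPKM in Sham and 2.23, 2.42 and 2.21 in WT. RIPK1_D138N read 2.74, 0.510 and 0.558, and TNFR12_KO 2.39, 6.79 and 9.50. WT libraries all lay above Sham, TNFR12_KO libraries 2 and 3 were the highest of the 12, and library 1 of RIPK1_D138N stood apart from libraries 2 and 3, which carry Xist. Tlr2 rose in TNFR12_KO against Sham, 5.67-fold in mean FPKM (log2 fold change 1.66 ± 0.40, limma adjusted p = 0.00973).

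Between the mutants the Tlr2 difference was -1.66 ± 0.40 (RIPK1_D138N against TNFR12_KO) and missed the threshold over all genes (limma adjusted p = 0.0785). It was called without RIPK1_D138N library 1 (-2.09, adjusted p = 0.00438) and without TNFR12_KO library 1 (-2.13, adjusted p = 0.0166). Without the 2 RIPK1_D138N libraries that hold Xist it was -0.80, with only 1 library of that group left. Neutrophil markers summed to 160, 27.4 and 12.2 FPKM in TNFR12_KO libraries 1 to 3 and Kupffer cell markers to 21.1, 13.5 and 20.2, and their part in the Tlr2 values was not tested. Tlr2 was not called in WT against Sham (0.67, 95% interval -0.19 to 1.53), which a fit of those 6 libraries alone did call (limma adjusted p = 0.0158). Nor was it called between WT and either mutant, except without library 1 of RIPK1_D138N (-1.10, limma adjusted p = 0.0237) or of TNFR12_KO (1.46, adjusted p = 0.00544) and in a fit of the TNFR12_KO and WT libraries alone (0.99, adjusted p = 0.0431).

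Tlr5 (ENSMUSG00000079164, chromosome 1, 182954788 to 182976044, plus strand), the flagellin receptor, had levels of 1.09, 2.58 and 1.07 FPKM for Sham and 0.374, 0.716 and 0.311 for WT. RIPK1_D138N libraries read 0.569, 0.472 and 0.606, and TNFR12_KO libraries 0.750, 1.48 and 2.28. Sham and TNFR12_KO overlapped, WT and RIPK1_D138N overlapped, and the first pair of groups lay above the second. It fell in WT against Sham (log2 fold change -0.77 ± 0.25, limma adjusted p = 0.0178) and was higher in TNFR12_KO than in WT (0.74 ± 0.25, adjusted p = 0.0284). The first call was lost without Sham library 2, WT library 1 or WT library 3 (limma adjusted p = 0.0848, 0.0538 and 0.0601), with median-of-ratios scaling (adjusted p = 0.0795) and with no filter (adjusted p = 0.0572). The second was lost without WT library 1 or 3 or TNFR12_KO library 2 or 3 (limma adjusted p = 0.081, 0.0903, 0.0704 and 0.126) and with no filter (adjusted p = 0.0831).

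Tlr3 (ENSMUSG00000031639, chromosome 8, 45395665 to 45411080, minus strand), the receptor for double-stranded RNA, had levels of 0.764, 0.943 and 0.462 FPKM for Sham and 1.04, 0.776 and 0.942 for WT. RIPK1_D138N libraries read 0.820, 0.756 and 0.688, and TNFR12_KO libraries 0.879, 1.63 and 0.594. The 4 groups overlapped, and with no filter on low values no comparison called it (lowest limma adjusted p = 0.561). Its exons share 381 bases with Gm45542 on the other strand, which was at or near 0.

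Myd88 (ENSMUSG00000032508, chromosome 9, 119335934 to 119341411, minus strand) encodes the adaptor shared by most Toll-like receptors. Sham libraries gave 19.9, 21.4 and 33.8 FPKM, WT libraries 6.64, 5.17 and 8.13, RIPK1_D138N libraries 7.36, 5.59 and 5.34, and TNFR12_KO libraries 5.21, 6.29 and 5.52. As for Lbp, every Sham library was above the other 9 and the 3 other groups overlapped. Myd88 fell against Sham in WT (log2 fold change -1.75 ± 0.22, limma adjusted p = 2.13e-05), in RIPK1_D138N (-1.85 ± 0.22, adjusted p = 0.000111) and in TNFR12_KO (-1.93 ± 0.22, adjusted p = 7.86e-05). Intervals against WT were -0.57 to 0.37 for RIPK1_D138N and -0.65 to 0.29 for TNFR12_KO.

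The Myd88 values carry a limit of annotation. The exons of Myd88 share 290 bases with those of Acaa1a, a peroxisomal thiolase gene on the other strand, and the sources used here do not give a strand setting for the counting. The mean of Acaa1a was 164 ± 6.33 FPKM for Sham, 49.4 ± 16.3 for WT, 112 ± 13.4 for RIPK1_D138N and 122 ± 14.4 for TNFR12_KO (± SD, n = 3). The deposited table gives Myd88 a locus of 224344 bases, against 5478 for the annotated gene. The part of neighbouring transcripts in the Myd88 values was not tested.

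Tirap (ENSMUSG00000032041, chromosome 9, 35184551 to 35200291, minus strand) encodes the adaptor that brings MyD88 to TLR2 and TLR4. Sham libraries read 3.61, 5.39 and 8.34 FPKM, WT 4.63, 2.74 and 4.36, RIPK1_D138N 2.13, 2.62 and 2.77, and TNFR12_KO 2.69, 2.04 and 3.52. WT overlapped with every group, while each mutant lay below all Sham libraries. Tirap fell in RIPK1_D138N against Sham (log2 fold change -0.89 ± 0.25, limma adjusted p = 0.0191) and in TNFR12_KO against Sham (-0.81 ± 0.25, adjusted p = 0.0337). Both calls were lost without Sham library 3, the highest (limma adjusted p = 0.0771 and 0.124), with median-of-ratios scaling (adjusted p = 0.0663 and 0.0832), with quantile normalization (adjusted p = 0.051 and 0.0593), with no filter (adjusted p = 0.0564 and 0.0917) and in fits of only the groups compared (adjusted p = 0.0507 and 0.0768). The TNFR12_KO call was also lost without Sham library 2 (adjusted p = 0.0666) and without TNFR12_KO library 1 or 2 (adjusted p = 0.08 and 0.106). In WT against Sham Tirap was not called (-0.43, 95% interval -0.98 to 0.12), except without Sham library 1 (-0.68, adjusted p = 0.0335). The deposited table gives Tirap a locus of 83256 bases, against 15741 for the annotated gene. Its exons overlap those of 2 other genes and share 446 bases with Gm39318 on the other strand, whose group means were at most 0.0686 FPKM. The part of neighbouring transcripts in the Tirap values was not tested.

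Irak3 (ENSMUSG00000020227, chromosome 10, 120141648 to 120202130, minus strand) encodes the inhibitory member of the IRAK family. Its level was 0.510, 0.689 and 0.994 FPKM for Sham and 6.14, 3.93 and 5.43 for WT. RIPK1_D138N read 0.218, 0.131 and 0.133, and TNFR12_KO 0.165, 0.30 and 0.203. The order was WT above Sham above both mutants with no overlap, and the mutants overlapped with each other. Irak3 rose 7.07-fold in mean FPKM in WT against Sham (log2 fold change 1.83 ± 0.17, limma adjusted p = 2.14e-06). Against WT it fell in RIPK1_D138N (-2.39 ± 0.17, adjusted p = 7.03e-07), where the mean in WT was 32.1 times higher, and in TNFR12_KO (-2.32 ± 0.17, adjusted p = 8.13e-07), where it was 23.2 times higher.

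Both mutants also lay below Sham for Irak3 (RIPK1_D138N -0.57 ± 0.17, limma adjusted p = 0.0227, and TNFR12_KO -0.49 ± 0.17, adjusted p = 0.0467). The RIPK1_D138N call was lost without Sham library 3 (adjusted p = 0.0853), without RIPK1_D138N library 2 or 3 (adjusted p = 0.0649 and 0.073) and with no filter (adjusted p = 0.0525). The TNFR12_KO call was lost without Sham library 2 or 3 (adjusted p = 0.0832 and 0.149), without TNFR12_KO library 1, 2 or 3 (adjusted p = 0.122, 0.0659 and 0.117) with median-of-ratios scaling (adjusted p = 0.0746) and with no filter (adjusted p = 0.0991). An estimated 7.50 to 28.1 fragments lay behind the mutant values and 639 to 718 behind those of WT. Irak3 shares 192 exonic bases with Tmbim4 on the other strand, which stood at 64.6 ± 8.48 FPKM in Sham and 29.2 ± 2.17 in WT (± SD, n = 3), and 2 genes in all overlap the exons of Irak3. The table's locus for Irak3 has 83271 bases, against 60483 for the annotated gene. The part of these neighbours in the Irak3 values was not tested.

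A ratio of 2 genes within a library does not depend on how libraries were scaled. The smallest p that an exact permutation test of 3 against 3 libraries can give is 0.1, so none of the 24 tests of ratios could pass a threshold of 0.05. Cd14 to Tlr4 stood at 13.3, 19.1 and 19.1 for Sham and 588, 666 and 946 for WT, with 71.4, 9.66 and 7.17 for RIPK1_D138N and 39.1, 134 and 31.8 for TNFR12_KO. Its geometric mean was 42.4 times higher in WT than in Sham (two-sided exact permutation p = 0.1, adjusted 0.171), and WT libraries lay above all others. The ratio of Cd14 to Lbp was 189 times higher in WT than in Sham, and still 4.55 times higher in RIPK1_D138N and 6.12 times higher in TNFR12_KO than in Sham, each without overlap (exact permutation p = 0.1, adjusted 0.171 in all 3).

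Irak3 to Myd88, the inhibitor against the adaptor, stood at 0.0256, 0.0322 and 0.0294 in Sham and rose to 0.925, 0.761 and 0.668 in WT. RIPK1_D138N held 0.0297, 0.0234 and 0.0249, which overlapped with Sham, and TNFR12_KO held 0.0316, 0.0477 and 0.0368, which lay above RIPK1_D138N without overlap (ratio 0.679, exact permutation p = 0.1, adjusted 0.171). The ratio was 26.9 times higher in WT than in Sham (exact permutation p = 0.1). Ly96 to Tlr4 overlapped between WT and Sham, at 38.8 to 48.6 against 16.1 to 44.2. In total the groups did not overlap in 14 of the 24 tests. These tests share genes and libraries, and how often ratios of other genes do the same was not counted, so the number is a description.

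**Figure D3:**
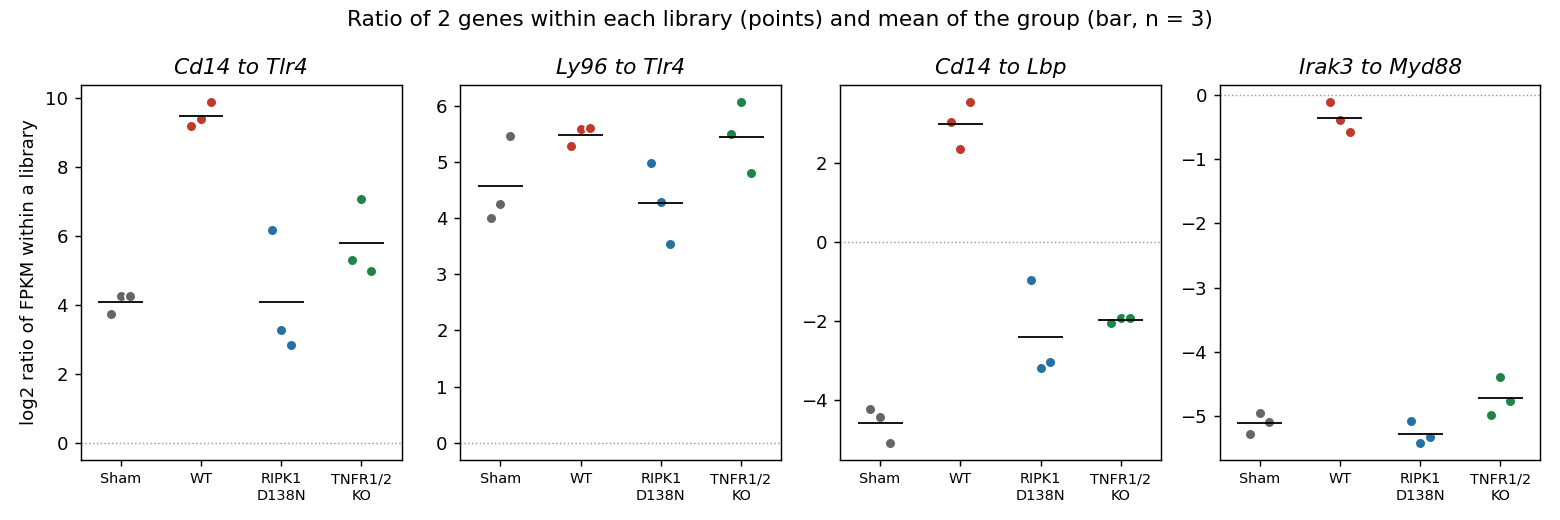
Log2 ratio of the FPKM of 2 genes within each library (points) by group, with the group mean as a bar (n = 3) and a dotted line at equal levels. WT stands apart from the other groups in Cd14 to Tlr4, Cd14 to Lbp and Irak3 to Myd88, but not in Ly96 to Tlr4.

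The other genes of the pathway were read from lists of receptors, partners, adaptors, kinases, transcription factors, regulators and targets. The share of a list that was called is to be read beside the shares of all genes given above, and no list was tested as a set. A gene that passed the filter only through the libraries of the group where it is high had to differ, so counts over tested genes are descriptions. Among those that rose in WT against Sham, this holds for 3 kinases and ubiquitin genes (Traf3, Tab1 and Tab3) and 3 inducible targets (Il6, Ccl3 and Ptgs2), which passed only through WT and also fell in both mutants against WT, while Ly86, a receptor partner that fell, passed only through Sham. Of the 8 other Toll-like receptors only Tlr12 passed the filter, and it fell in WT against Sham (1.52 to 0.337 FPKM in the mean, log2 fold change -0.91, limma adjusted p = 0.01) and was higher in both mutants than in WT (0.86 and 1.07). Of 6 tested receptor partners and chaperones 5 fell in WT against Sham and none rose, among them Hsp90b1 (gp96, the chaperone that Toll-like receptors need to fold, -1.67) and Cd36, a scavenger receptor that works with TLR2 (-1.74). Cd36 was higher in each mutant than in WT (2.10 in RIPK1_D138N, 1.60 in TNFR12_KO), while Lrrc59 fell against WT (-1.39 and -1.11).

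Among adaptors, Ticam1, which encodes the TRIF adaptor of TLR3 and TLR4, fell in WT against Sham (-1.03, limma adjusted p = 0.00178), and Pik3ap1 was lower in RIPK1_D138N than in WT (-1.40, adjusted p = 0.00107). Of 20 tested kinases and ubiquitin genes 6 rose, 3 of which passed the filter only through WT, and 5 fell in WT against Sham, with Traf3 (1.21, 1 of those 3) and Ikbke (1.15) up and Chuk (-1.07) and Irak4 (-0.96) down. Against WT, 9 fell in RIPK1_D138N and 6 in TNFR12_KO, with those 3 among them each time, and 1 (Chuk) rose in each. The largest falls were Ikbkg, the NEMO subunit of the IKK complex (-1.92 and -1.23), and Ikbke (-1.56 and -1.21). Of 6 transcription factors 3 rose in WT, among them the NF-κB subunits Nfkb1 (1.27) and Rela (1.09), and both of these fell against WT in RIPK1_D138N (-1.12 and -1.57) and in TNFR12_KO (-0.89 and -1.07).

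Genes that restrain the pathway divided. Of 11 tested, 6 rose and 1 fell in WT against Sham. Atf3, a repressor of inflammatory genes, went from 2.84 to 131 FPKM in the mean (log2 fold change 5.07, limma adjusted p = 6.71e-08), and Tnfaip3, which encodes A20, from 0.398 to 8.78 (2.77, adjusted p = 2.93e-06). Sigirr, an inhibitory receptor, fell (-1.45) and was higher in both mutants than in WT (2.09 and 1.44). Irak3 lay below Sham in the mutants, but Atf3 did not: it stood above Sham in RIPK1_D138N (4.31, limma adjusted p = 1.57e-06) and in TNFR12_KO (4.56, adjusted p = 6.16e-07), as did Dusp1 (2.43 and 3.12). In all, 5 of 11 were higher in RIPK1_D138N and 6 of 11 in TNFR12_KO than in Sham, with 1 fall (Tollip) in each.

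Of 9 tested genes of LPS handling and other bacterial sensing, 3 rose and 2 fell in WT against Sham. Pglyrp2, a peptidoglycan amidase of hepatocytes, fell from 47.7 to 7.76 FPKM in the mean (-2.49, limma adjusted p = 8.83e-07) and was higher in both mutants than in WT (2.11 and 2.45), which Lbp was not. Alpl, an alkaline phosphatase that can remove phosphate from LPS, was higher than in Sham in WT (0.82), RIPK1_D138N (1.06) and TNFR12_KO (1.38). Casp4, the intracellular LPS sensor, rose in WT (0.79, limma adjusted p = 0.0173).

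Among 12 tested inducible targets of the receptors 8 rose, 3 of which passed the filter only through WT, and 1, Cxcl1, fell in WT against Sham. Ccl2, which recruits monocytes, averaged 68.9 FPKM for WT and 0.281 for Sham (5.78, limma adjusted p = 1.44e-05) and was lower in both mutants than in WT (-3.39 and -2.58). Cxcl10, an interferon-induced chemokine, was above Sham in WT (4.40), RIPK1_D138N (3.94) and TNFR12_KO (4.82), and 6 of the 12 were above Sham in each mutant, while Cd14 was not called there. Saa3, an acute-phase gene, was lower than Sham in RIPK1_D138N (-2.76) and in TNFR12_KO (-3.41). No gene of the 8 lists was called between the mutants, and 0.929% of all genes were.

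**Figure D4:**
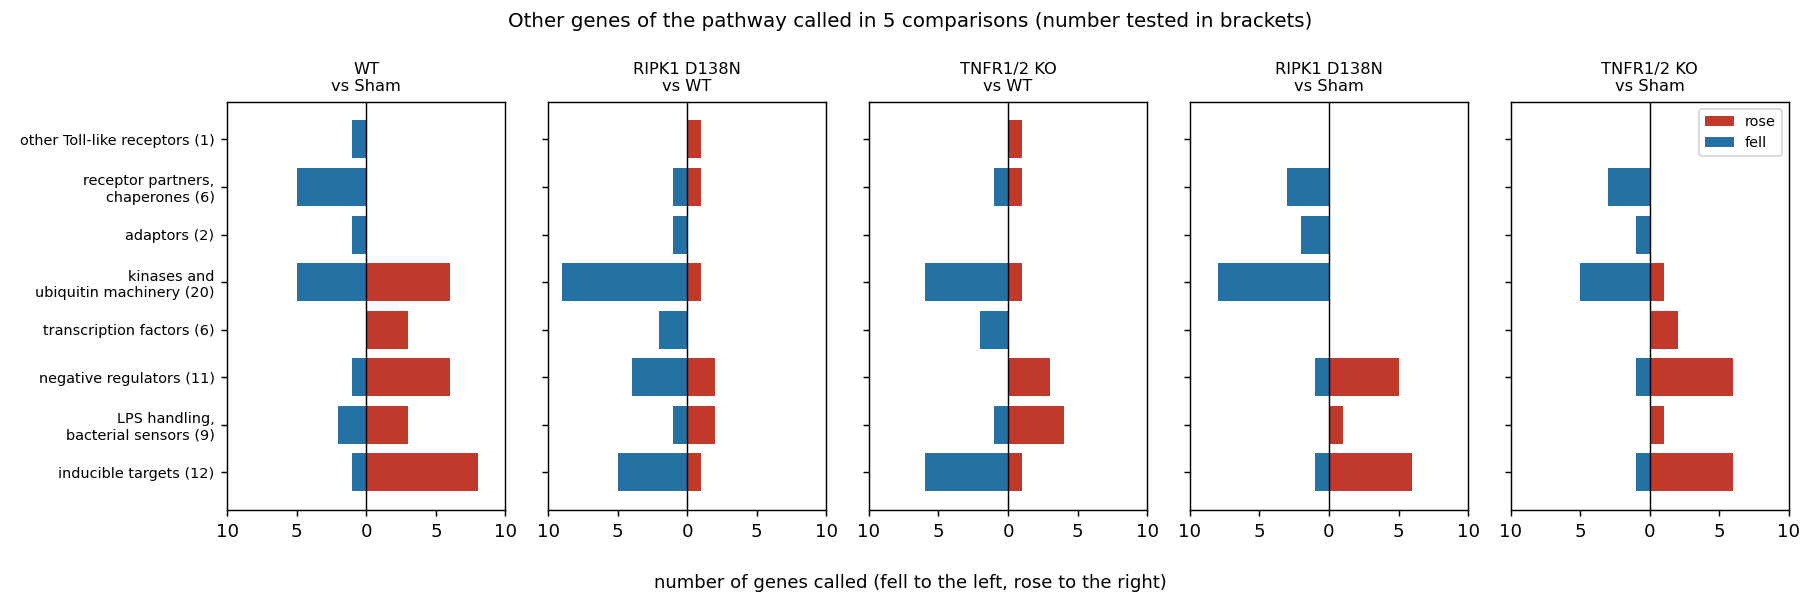
Number of genes called (limma, adjusted p under 0.05) in 8 lists of other pathway genes, with falls to the left and rises to the right, for 5 comparisons and the number tested in brackets. Inducible targets show 8 rises in WT against Sham and 6 in each mutant against Sham, while kinases and ubiquitin machinery show 9 and 6 falls in the mutants against WT. Of the 8 rises, and of the 9 and of the 6 falls, 3 are genes that passed the filter only through WT. Of all genes 16.4% were higher in WT than in Sham, and 7.51% (RIPK1_D138N) and 7.46% (TNFR12_KO) higher in the mutants than in Sham. Against WT 21.9% were lower in RIPK1_D138N and 17.5% in TNFR12_KO.

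The genes most like Cd14 across the 12 libraries were Timp1, an inhibitor of matrix proteases (difference 0.31), Npy, a neuropeptide (0.50), and Sprr1a, a gene of cornified epithelium (0.55). Likeness was the root-mean-square difference of centred log2(FPKM + 1) among 6640 tested genes, with low ones and predicted Gm or Rik names left out. The mean of Timp1 was 0.394 FPKM for Sham, 43.4 for WT, 1.32 for RIPK1_D138N and 0.923 for TNFR12_KO, and Npy was listed at 0 in Sham. Those most like Irak3 were Map3k1, a kinase of the JNK pathway (0.14), Fbxo30 (0.19) and the glycolytic enzyme Aldoa (0.20). Map3k1 averaged 1.05, 6.53, 0.612 and 0.661 FPKM over the groups as ordered for Timp1, which like Irak3 is lower in both mutants than in Sham. The added 1 FPKM compresses low values such as those of Irak3 in the mutants, so its nearest genes can differ from it in fold change. Mean FPKM in WT and RIPK1_D138N was 5.17 and 0.161 for Irak3, 11.2 and 1.57 for Fbxo30, and 270 and 55.4 for Aldoa. Likeness over 4 groups of 3 libraries describes these profiles and no more.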

How the data were processed

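Liver RNA of 12 mouse libraries was analysed from deposited values. Per the submitters' processing notes, STAR 2.5.4a, Cufflinks 2.2.1 and Cuffdiff were used on mm10, and the authors deposited FPKM for 53796 genes without read counts. The WT and Sham columns could be tied to their group but not to a numbered sample, so their libraries are numbered in table order, which pairs nothing.

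The 10 genes and all lists were chosen with earlier results of these data known. Named from each list and comparison are called genes without overlap whose higher group averages 1 FPKM or more, at most the top 2 in each direction, and also Ripk1, Tnfrsf1a, Tnfrsf1b and the 3 genes most like each member whose log2 group means span more than 2. Other names were chosen after their values were seen.

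Values were taken as log2(FPKM + 1). limma 3.58.1 (R 4.3.3, empirical Bayes with trend) fitted 4 group means over 12 libraries for the 11728 genes at 1 FPKM or more in 3 libraries, with Benjamini-Hochberg adjustment. Tested on simulated data (11728 genes, 200 changed) it recovered 54 to 72% of changes of 1 log2 unit and 89 to 98% of changes of 2 over the 6 comparisons. The changes were placed only in genes with a mean log2(FPKM + 1) above 2, so these rates do not cover Irak3, Tlr2 and Tlr5. Far more than 200 genes were called in each real comparison but that between the mutants, so the rates need not hold there. Fragment numbers were estimated from the steps between low values and the longest coding transcript. The closing section gives the alternatives.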

Additional observations from a re-analysis of the deposited data

How the results depend on the processing

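The calls of Cd14, Ly96 and Irak3 in WT against Sham and in each mutant against WT, and those of Lbp and Myd88 in all 3 groups against Sham, held under each alternative in which the gene was tested and each group kept at least 2 libraries. Of 632 alternative values of single genes 557 kept direction and side of the threshold, 29 that were not called changed sign, 36 lost a call and 10 gained one. No called difference changed sign. These counts include fits without the libraries with Xist, which leave 1 RIPK1_D138N library, too few for a call to be weighed. The number of genes called in TNFR12_KO against WT was 2 with a filter of 5 FPKM, which leaves 4 of the genes tested. In RIPK1_D138N against Sham it was 2 with no filter, 2 with the filter of 5 FPKM, and 2 to 5 when leaving out each library. In TNFR12_KO against Sham it was 3 with no filter, 2 with the filter of 5 FPKM, 3 with median-of-ratios scaling and 3 to 5 when leaving out each library. Between the mutants it was 0 to 1 when leaving out each library, the 1 being Tlr2. Calls over all genes between the mutants then ranged from 27 to 588 in place of 109, and were 60 with no filter and 20 from those libraries alone. Against Sham they were 2249 in place of 3539 for RIPK1_D138N without its library 3, and 1856 in place of 3002 for TNFR12_KO without its library 3. Only the mutants carry usable replicate numbers, and libraries of the same number did not deviate together (correlations -0.10, -0.20 and 0.06). With the replicate number as a block (replicate block) 0 of the 8 genes were called between the mutants, and 11 of all genes. Adding 0.1 FPKM to both genes turned the Irak3 to Myd88 ratio of RIPK1_D138N against Sham from -0.16 to 0.35 on the log2 scale. Depth limits Tlr4, Tlr3 and the mutant values of Irak3.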
